A study of Mus musculus with 12 samples.

Results

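The alpha and beta globin genes comprise 6 of the 19324 genes named by the platform annotation, Hba-a1, Hba-a2, Hba-x, Hbb-b2, Hbb-y and Hbb-bh1. They were followed through every probe set assigned to at least 1 of them, 15 of the 45101 on the array. Of these probe sets, 8 report adult globin (5 alpha and 3 beta) and 7 report embryonic globin. The annotation names a single gene for 11 of them and several near-identical globin copies for the other 4.

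Whole blood was drawn from wild-type C57Bl/10 mice aged 3 months, with 1 mouse per Affymetrix Mouse 430 2.0 array and 4 mice in each of 3 groups. Normoxic (NX) mice breathed 21% oxygen for 14 days. Chronic hypoxia (CH) mice spent 14 days in a chamber in which oxygen was lowered in steps from 21% to 8%, and recovery (REC) mice spent 14 days under the same hypoxia and then 14 days at 21% oxygen. The question was how the RNA of circulating blood changes in hypoxia and after return to normal air, and here it was asked of the globin genes alone. In whole blood, fewer cells of a type and less RNA per cell cannot be told apart. For the CH mice the labels contradict themselves, with a sample identifier that reads normoxic and titles and exposure notes that read hypoxic, and the titles were followed.

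Haemoglobin carries oxygen as a tetramer that pairs alpha-type with beta-type chains. The genes lie in an alpha and a beta cluster on different chromosomes, in which embryonic genes are used in early red cells and adult genes in later ones. In adult mammals mature red cells lack a nucleus, and the globin RNA of blood is carried by reticulocytes, the youngest circulating red cells, which are released in larger numbers when erythropoietin rises.

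Proximal promoters were read from RefSeq on GRCm38.p6 to compare the sequence just before the members' starts. These bases lie outside the transcripts that probe sets read, so they do not show what a shared probe set can tell apart. The promoter table held 4 of the 6 listed genes, and Hbb-b2 and Hbb-bh1 are named only. The 120 bases just before each gene's start are given 5′ to 3′ on the gene's own strand. Hba-x stands at chr11:32276480-32276599, Hba-a1 at chr11:32283552-32283671 and Hba-a2 at chr11:32296372-32296491, all on the plus strand, and Hbb-y at chr7:103853208-103853327 on the minus strand. Capitals mark the letters CACCC of Klf1 sites, the CCAAT box, the core GATA of GATA factor sites, and ATAAA as found in TATA boxes. Both strands were searched, and no marked letters overlapped.
Hba-x: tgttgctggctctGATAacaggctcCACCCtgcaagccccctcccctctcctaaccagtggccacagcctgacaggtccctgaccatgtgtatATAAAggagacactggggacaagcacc
Hba-a1: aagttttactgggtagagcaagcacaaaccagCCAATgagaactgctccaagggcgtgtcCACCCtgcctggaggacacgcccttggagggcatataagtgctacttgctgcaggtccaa
Hba-a2: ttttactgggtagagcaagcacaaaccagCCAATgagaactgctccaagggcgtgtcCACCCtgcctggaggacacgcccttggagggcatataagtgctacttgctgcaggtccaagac
Hbb-y: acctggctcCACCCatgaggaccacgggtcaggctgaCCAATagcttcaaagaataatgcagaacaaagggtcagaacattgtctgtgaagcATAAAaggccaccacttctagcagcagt
Hba-a1 and Hba-a2 shared an unbroken run of 117 bases, offset by 3 bases, whereas the longest run shared by any other pair was 10 bases. CACCC stood in all 4 windows and in 31.7% of 32851 promoter windows of the same length. CCAAT stood in Hba-a1, Hba-a2 and Hbb-y and in 21.3% of windows, ATAAA in Hba-x and Hbb-y and in 20.2%, and GATA in Hba-x and in 29.5%. The Hba-a1 and Hba-a2 windows hold the letters tataag, which ATAAA does not match, so a window without ATAAA need not lack a TATA box. These matches describe letters only.

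The adult alpha genes Hba-a1 (chromosome 11, 32283672 to 32284486) and Hba-a2 (chromosome 11, 32296492 to 32297310) encode the alpha chain of adult haemoglobin, and 3 of the 5 adult alpha probe sets were assigned to both. Adult beta globin was read by 1 probe set shared by Hbb-bt, Hbb-bs, Hbb-b2 and Hbb-b1 and by 2 probe sets assigned to Hbb-b2. Hbb-b1 and Hbb-b2 are names of another haplotype of the beta cluster than Hbb-bs and Hbb-bt, the adult beta genes of the C57BL reference (chromosome 7, 103826523 to 103827928 and 103812524 to 103813923), so which of these copies the Hbb-b2 probe sets read in C57Bl/10 blood was not tested. Levels below are the deposited linear signals, and all changes are differences in log2(signal + 16) with their standard error (SE). Levels of different probe sets were not compared with each other.

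Adult globin signals were higher in CH than in NX blood in 7 of 8 adult probe sets, about 3-fold to 5-fold in the ratio of group means. The brightest adult alpha probe set (1452757_s_at, Hba-a1 and Hba-a2) read 25048, 16102, 17576 and 25730 in the NX mice. It read 54672, 61758, 64251 and 84865 in the CH mice and 14456, 9234, 10042 and 12077 in the REC mice. Every CH mouse was above every NX mouse, and every REC mouse was below every NX mouse. The change in CH against NX was 1.66 (SE 0.25, limma adjusted p = 2.74e-04), and that in REC against NX was -0.87 (SE 0.25, limma adjusted p = 0.0651), which did not pass.

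The adult beta probe set shared by the 4 Hbb names (1417184_s_at) read 23858, 16296, 15974 and 24385 in NX. In CH it read 50528, 58825, 63388 and 82370, and in REC 13553, 9322, 10043 and 10687. The order of the 3 groups was that of the alpha probe set, again with no overlap between any of the groups. The change was 1.67 in CH against NX (SE 0.25, limma adjusted p = 2.34e-04) and -0.87 in REC against NX (SE 0.25, limma adjusted p = 0.0614, not called).

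Of the other alpha probe sets, 1428361_x_at changed by 1.61 and 1417714_x_at by 2.10 in CH against NX, both assigned to Hba-a1 and Hba-a2. The probe set assigned to Hba-a2 alone (1427219_at) read 2826, 3779, 3755 and 4559 in NX. It rose to 11300.1, 15842, 13654 and 17344 in CH, a change of 1.96 (SE 0.23, limma adjusted p = 3.45e-05). In REC it read 3108, 3012, 3252 and 2700, which overlapped NX. The probe set assigned to Hba-a1 alone (1453574_at) gave signals between 1.16 and 25.4 over all 12 arrays and was not called in any comparison (0.42, -0.03 and 0.45 in CH against NX, REC against NX and CH against REC). At that level the added 16 sets the log2 value, so this probe set gives almost no reading of Hba-a1 apart from its copy.

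The Hbb-b2 probe set 1427865_at changed by 2.30 in CH against NX (SE 0.28) and by -0.66 in REC against NX (SE 0.28, limma adjusted p = 0.231). Its partner 1427866_x_at read 572.2, 448.9, 427.2 and 604.2 in NX, 1858, 2385, 2182 and 3102 in CH, and 252.5, 102.8, 116.5 and 129.8 in REC. The 3 groups did not overlap, and this was the only globin probe set called in REC against NX, at -1.73 (SE 0.28, limma adjusted p = 0.00372). In CH against NX it changed by 2.17 (SE 0.28, limma adjusted p = 8.23e-05). The other 2 adult beta probe sets kept REC at 0.542 and 0.624 of the NX mean, against 0.293 for this probe set.

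**Figure D1:**
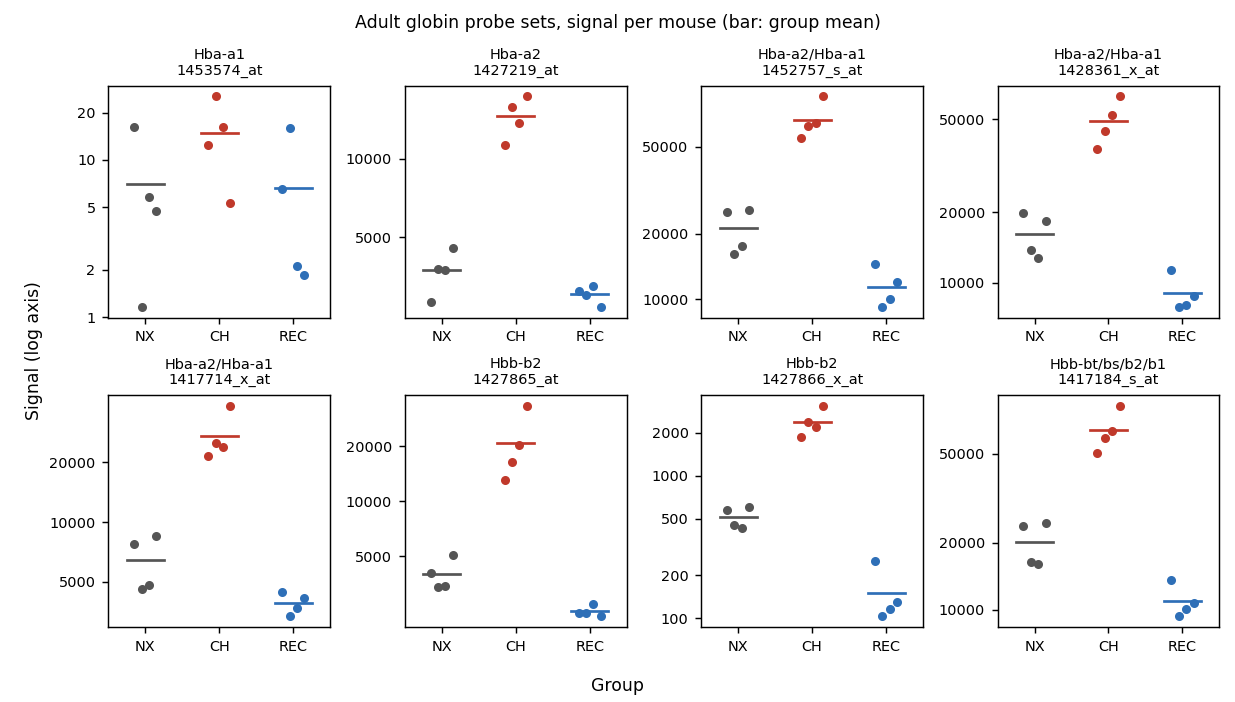
Deposited signal of the 8 adult globin probe sets in each mouse (log axis), by group, with the group mean as a bar. In 7 panels the 4 CH points lie above all NX points, and in Hba-a1 1453574_at, with signals up to 25.4, CH and NX overlap.

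Embryonic globins were low in NX blood and mostly higher in CH. Hbb-y (chromosome 7, 103851754 to 103853207) encodes the epsilon-type embryonic beta chain, and its 3 probe sets moved together. The brightest by mean signal (1436823_x_at) read 74.9, 136.8, 101.1 and 115.8 in NX and 577.4, 755.0, 384.7 and 629.4 in CH. In REC it read 117.8, 71.9, 57.8 and 25.7. All CH mice were above all NX mice, and REC overlapped NX. The change in CH against NX was 2.28 (SE 0.34, limma adjusted p = 2.15e-04), and that in REC against NX was -0.64 (SE 0.34, limma adjusted p = 0.351). The other Hbb-y probe sets changed by 2.20 (1436717_x_at) and 1.86 (1450621_a_at) in CH against NX, both called and both without overlap. Over all arrays, 1436823_x_at, 1436717_x_at and 1450621_a_at had r of 0.917, 0.905 and 0.938 with the adult beta probe set 1417184_s_at. With the adult alpha probe set 1452757_s_at, r was 0.909, 0.897 and 0.936. Whether the Hbb-y probe sets also read some of the far brighter adult beta RNA was not tested.

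Hba-x (chromosome 11, 32276600 to 32278116) encodes the embryonic zeta chain. Its probe set (1448716_at) read 2.42, 2.61, 1.13 and 12.2 in NX, 19.9, 61.2, 7.24 and 43.6 in CH, and 1.51, 0.958, 0.665 and 3.93 in REC. CH and NX overlapped, since CH mouse 3 was below NX mouse 4. The change of 1.13 in CH against NX passed (SE 0.33, limma adjusted p = 0.019), but it was lost without NX mouse 2 (1.09, adjusted p = 0.0511), NX mouse 3 (1.05, adjusted p = 0.0587) or CH mouse 2 (0.87, adjusted p = 0.0605). Without CH mouse 4 it stood just under 2-fold (0.99).

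Hbb-bh1 (chromosome 7, 103841638 to 103843162) encodes an embryonic beta-type chain, and its 3 probe sets disagreed. The probe set 1450736_a_at read 33.8, 18.1, 8.85 and 17.1 in NX, 76.4, 65.6, 54.0 and 56.4 in CH, and 22.3, 14.5, 13.0 and 12.8 in REC. It rose in CH without overlap, by 1.19 (SE 0.25, limma adjusted p = 0.00227). The probe set 1437810_a_at changed by 0.99 (SE 0.40, limma adjusted p = 0.0825) and was not called, with NX mouse 1 at 156.5 inside the CH range of 76.4 to 207.0. Without NX mouse 1 it was called at 1.38, and without CH mouse 3 at 1.23. The probe set 1437990_x_at ranged from 7.82 to 179.8 in NX and from 3.61 to 104.8 in CH and was not called in any comparison (0.26 in CH against NX, SE 0.63). No detection call accompanied the signals used here, so for Hba-x and Hbb-bh1 a low signal cannot be told apart from background in any group. In CH, Hba-x ranked 18570th to 38144th and Hbb-bh1 1450736_a_at 15110th to 20145th of the 45101 probe sets of an array.

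**Figure D2:**
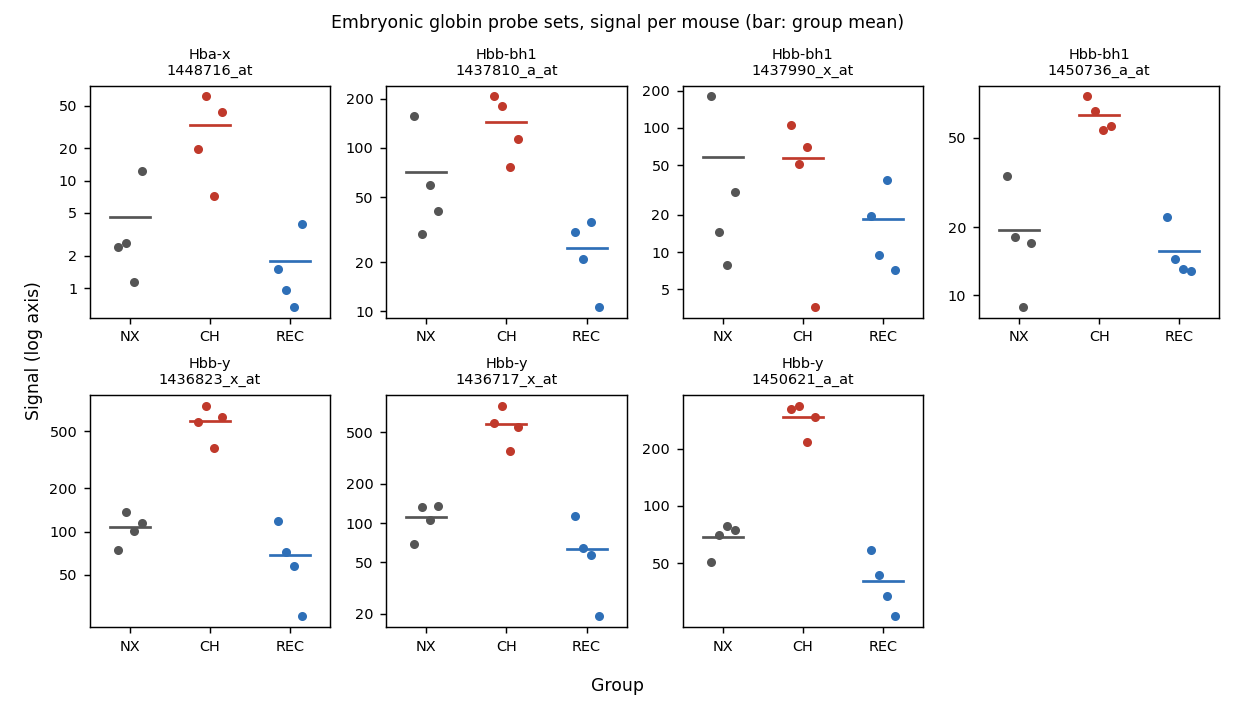
Deposited signal of the 7 embryonic globin probe sets in each mouse (log axis), by group, with the group mean as a bar. The 3 Hbb-y panels separate all CH from all NX mice, while NX mouse 1 is the highest NX point in all 3 Hbb-bh1 panels.

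Over the 15 globin probe sets, 12 were called higher and 0 lower in CH against NX (7 of 8 adult and 5 of 7 embryonic), where a call needed an adjusted p below 0.05 and at least a 2-fold change. Over all 45101 probe sets, 8.04% were called higher in the same comparison. The median globin change was 1.67, against 0.11 over all probe sets. In 11 of the 15, all CH mice were above all NX mice, which held for 10.2% of all probe sets.

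In REC against NX, which used the same 4 NX mice, 1 globin probe set was called lower and 0 higher, while 2.74% of all probe sets were called lower. At an unadjusted p under 0.05, 8 globin probe sets passed, and the share of all probe sets at this limit was not counted. All REC mice were below all NX mice in 6 of the 15, all of them adult, beside 11.8% of all probe sets. The median globin change was -0.66, against -0.10 over all probe sets.

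In CH against REC, 13 of 15 globin probe sets were called higher, beside 12.6% of all probe sets, and the same number had all CH mice above all REC mice, beside 16% of all. The median change was 2.46 for the globins and 0.25 for all probe sets. The change was 2.54 for both the shared adult alpha and the shared adult beta probe set (SE 0.25 each), 3.90 for Hbb-b2 1427866_x_at and 2.92 for Hbb-y 1436823_x_at.

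The scale of the arrays moved with the groups, and the adult globins moved with it. The 18 hybridization control probe sets, which read bacterial and phage transcripts added in equal amount to each sample before hybridization, had a mean log2 signal of 12.67 ± 0.44 (SD, n = 4) in NX, 14.29 ± 0.25 in CH and 11.86 ± 0.23 in REC. The groups did not overlap, and the control difference was 1.62 in CH against NX, -0.81 in REC against NX and 2.43 in CH against REC (p = 0.029 each in two-sided exact permutation tests, the lowest value possible with 4 mice a group). The adult beta probe set minus the controls of the same array changed by 0.05 in CH against NX (exact permutation p = 0.43) and by -0.06 in REC against NX (exact permutation p = 0.4). In CH against REC it changed by 0.11 (exact permutation p = 0.029, and 0.087 after Benjamini-Hochberg over the 3 comparisons). The adult alpha probe set gave 0.05, -0.06 and 0.11 (exact permutation p = 0.4, 0.37 and 0.057). Over the 12 arrays the log2 signals of both probe sets and the control mean had a Pearson r of 0.998, a description over arrays that share this scale. The ratio of actin 3′ to 5′ signal, a sign of RNA integrity, was 1.91 to 2.11 in CH, 1.61 to 1.86 in NX and 1.54 to 1.73 in REC. What part the array scale or RNA integrity had in the globin changes was not tested.

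When the arrays were scaled on the hybridization controls, 0 of 15 globin probe sets were called in CH against NX, 0 in REC against NX and 1, Hbb-b2 1427866_x_at, in CH against REC (limma). Over all probe sets, 1.23%, 17.1% and 1.38% were called higher in these comparisons under this scaling. At an unadjusted p under 0.05, 3, 1 and 1 passed, with no share over all probe sets counted. The 1 in REC against NX was Hbb-b2 1427866_x_at, at -1.00 (SE 0.25, limma adjusted p = 0.0121), just under the 2-fold limit. In CH against NX the adult members then changed by -0.07 to 0.69 and the embryonic by -0.57 to 0.75, while the median of all probe sets moved to -0.71. Relative to that median, the shared adult beta probe set stood 0.76 higher and Hbb-y 1436823_x_at 1.46 higher. Under quantile normalization 1 of 8 adult and 6 of 7 embryonic probe sets were called higher in CH against NX, beside 7.31% of all probe sets. The shared adult alpha and beta probe sets then changed by 0.02 and 0.01. Their signals ranked 5th to 8th of all probe sets on every NX and CH array, and quantile normalization gives the same value to the same rank, so it could return hardly any change for them. Hbb-y 1436823_x_at changed by 2.62. Centring each array on its median kept 11 higher calls in CH against NX, beside 6.29% of all probe sets. The shared adult beta probe set was then at 1.51. The shared adult probe sets stood near the top of the signal range, with the brightest globin at 65.5% to 76.1% of the highest signal of its array. That highest signal was a hybridization control probe set on every array, so this share again sets globin against the controls. No saturation flag accompanied the signals used here.

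**Figure D3:**
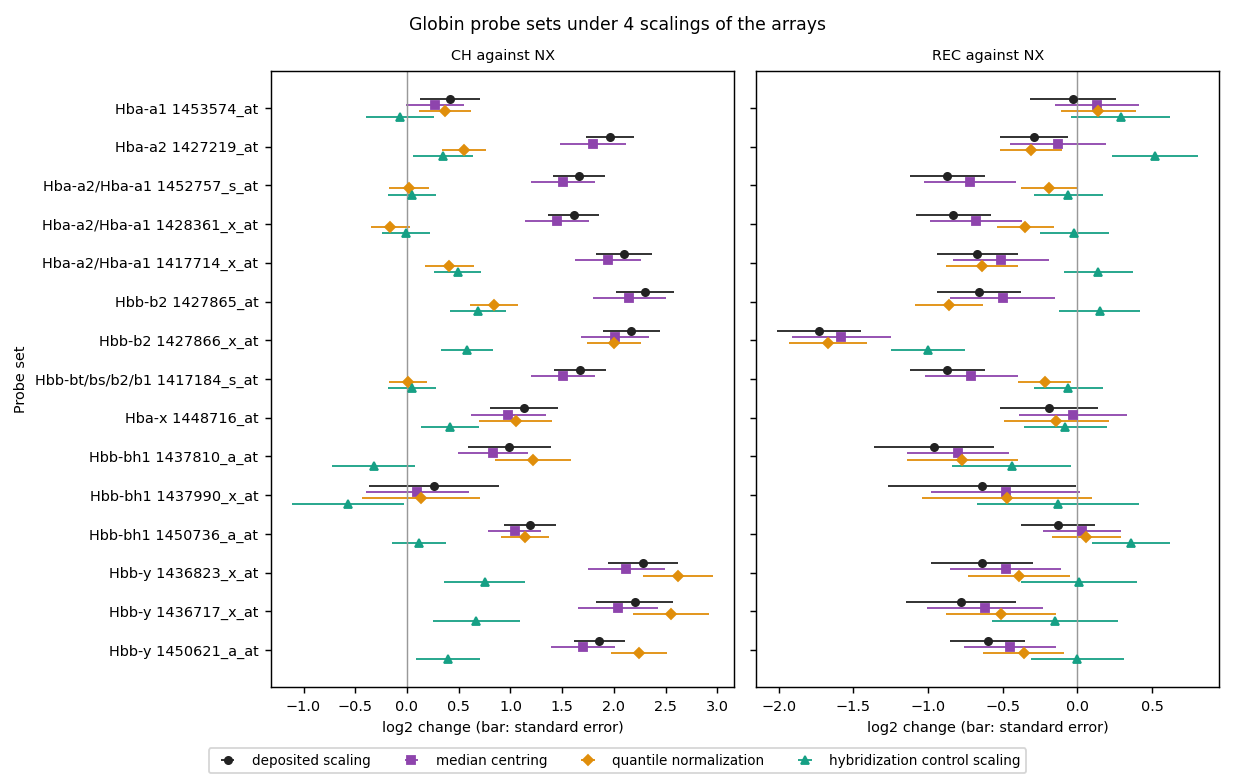
Change in log2(signal + 16) of the 15 globin probe sets in CH against NX and REC against NX under 4 scalings of the arrays, with standard errors. Scaling on the hybridization controls brings all 15 CH changes to between -0.57 and 0.75, and quantile normalization brings the shared adult alpha and beta probe sets to 0.02 and 0.01 but leaves Hbb-y 1436823_x_at at 2.62.

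A ratio of signals within an array does not depend on a factor that scales the whole array, and for bright probe sets the added 16 hardly alters it. The adult beta minus the adult alpha probe set, both the brightest of their kind, lay between -0.14 and 0.02 in NX, -0.11 and -0.02 in CH, and -0.18 and 0.01 in REC. The 3 groups overlapped throughout. The beta minus alpha change was 0.01 in CH against NX, 0.00 in REC against NX and 0.00 in CH against REC (exact permutation p = 0.94, 1 and 0.97). Both probe sets stood near the top of the signal range and followed the hybridization controls (Pearson r = 0.998 each). A difference near 0 between them therefore cannot show whether alpha and beta RNA changed alike. Means over all adult beta and all adult alpha probe sets differed more (0.50, -0.55 and 1.05, with no test). The alpha mean includes the near-floor Hba-a1 probe set, and the Hbb-b2 probe sets moved more than the shared ones.

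Hbb-y minus adult beta, a comparison added after the values were seen, was -8.04, -6.74, -7.09 and -7.53 in NX and -6.41, -6.25, -7.31 and -7.00 in CH. REC mice gave -6.66, -6.73, -7.09 and -8.00. The groups overlapped, and the change was 0.61 in CH against NX (exact permutation p = 0.17), 0.23 in REC against NX (p = 0.51) and 0.38 in CH against REC (p = 0.4). Hbb-y is dim enough for the added 16 to count, and as a log2 ratio with nothing added the changes were 0.78, 0.06 and 0.72 (exact permutation p = 0.14, 0.94 and 0.2). None of these passed. The adult beta probe set followed the hybridization controls (Pearson r = 0.998). Hbb-y minus those controls changed by 0.66, 0.17 and 0.49 (exact permutation p = 0.14, 0.8 and 0.29). Hbb-y minus adult beta therefore cannot tell a change against adult globin from one against the array scale. After quantile normalization the difference changed by 2.61 in CH against NX, where the rank of the adult beta probe set leaves only the Hbb-y change, so that value does not compare the genes.

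**Figure D4:**
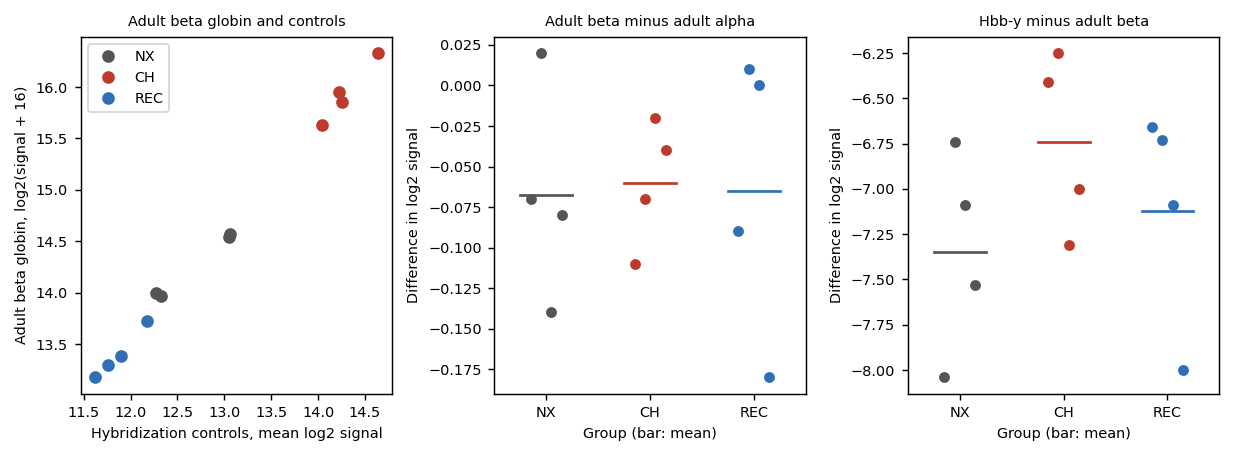
Left, adult beta globin signal against the mean of the hybridization controls, 1 point per array. Middle and right, adult beta minus adult alpha and Hbb-y minus adult beta on each array, with group means as bars. The 12 arrays fall along a line on the left (Pearson r = 0.998), and the 3 groups overlap in both difference panels.

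Among 11610 probe sets that name a single gene other than globin, with a mean signal of at least 100, the patterns most like the adult globins over the 12 arrays were those of 6 genes. Tpt1 (translationally controlled tumour protein), Jund (an AP-1 subunit), Rps29 (a ribosomal protein) and Cntd1 were among the 5 most alike to both chains, with Oaz1 (ornithine decarboxylase antizyme) for alpha and Cd24a (a cell surface glycoprotein) for beta. Pearson r lay between 0.995 and 0.999. The same 6 genes had r from 0.992 to 0.999 with the hybridization controls. Their CH against NX changes of 1.64 to 1.88 fell to between 0.03 and 0.27 with hybridization control scaling, and under quantile normalization Jund and Rps29 changed sign (-0.10 and -0.11).

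Transcription factors that switch on the globin clusters went both ways. Of 14 activators, 6 were called higher and 2 lower in CH against NX, beside 8.04% and 13.9% of all probe sets. Klf1, the factor that binds CACCC elements of adult beta globin, went from 45.1 ± 6.71 (SD, n = 4) to 430.4 ± 205 (change 2.73). Zfpm1, the partner of GATA1, changed by 2.73, Gata1 itself by 2.49, and Mafk, the small subunit of NF-E2, by 2.16. Lmo2 and Mafg were the other higher calls (1.78 and 1.45), and Ldb1, which bridges the locus control region to the genes, and Tcf3 were the lower ones (-1.72 and -1.26). With hybridization control scaling Klf1 (1.26) and Zfpm1 (1.23) remained called, and Gata1 (0.90) and Mafk (0.59) did not. The list then held 2 higher and 7 lower calls, with a median of -1.08, against -0.71 over all probe sets. Of all probe sets, 1.23% were called higher under this scaling, and the share called lower was not counted. In REC against NX, Lmo2 was lower (-1.11) and Lyl1 higher (1.16), and Lmo2 was no longer called with median centring (-0.95) or hybridization control scaling (-0.30).

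Among genes known to hold embryonic globin silent in adult red cells, most calls were lower. Of 18 repressors, 10 were called lower and 2 higher in CH against NX, while 13.9% of all probe sets were called lower. Their median change was -1.03, against 0.11 over all probe sets. Over the 15734 probe sets left once dim ones were removed, 35.2% were called lower and the median was -0.61. Bcl11a, a repressor of embryonic beta-type genes, went from 828.6 ± 167 (SD, n = 4) to 193.2 ± 170 (change -2.30), and Klf3 changed by -1.87. Sox6, a partner of Bcl11a, changed by 2.32 and Dnmt1, the maintenance DNA methyltransferase, by 2.31. Sox6 (0.77) and Dnmt1 (0.70) were not called with hybridization control scaling, where 16 of the 18 were called lower. The list median was then -2.49 and that of all probe sets -0.71, and the share of all probe sets called lower was not counted. Bcl11a is also expressed in B cells, and markers of lymphocytes moved the same way. In CH against NX, 4 of 5 B cell and 6 of 6 T cell markers were called lower (medians -2.21 and -1.71), and the part of lymphocytes in the repressor changes was not tested. In REC against NX, Sox6 alone was called (-1.57).

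Genes that supply heme or adjust globin translation were nearly all higher in CH. Of 11 measured, 9 were called higher and 0 lower, beside 8.04% and 13.9% of all probe sets. Cpox (3.90), Urod (3.79) and Alad (3.17) encode enzymes of heme synthesis, and Eif2ak1 (2.78) encodes the heme-regulated kinase that limits globin translation. These 4 stayed called with hybridization control scaling (2.35, 2.18, 1.58 and 1.18), where 1.23% of all probe sets were called higher. The other 5 higher calls were lost, 1 gene was called lower, and the list median went from 2.15 to 0.56. In REC against NX, Alas2, the erythroid rate-limiting enzyme of heme synthesis, was lower by -1.49 and Fech, which inserts iron into the ring, by -2.19. Alas2 was not called under quantile normalization (-1.13) or hybridization control scaling (-0.68).

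For haemoglobin oxidation and oxygen affinity 10 genes were listed, not all of which act on haemoglobin itself. Of these 10, 7 were called higher in CH against NX, beside 8.04% of all probe sets. Blvrb (biliverdin reductase B) changed by 3.79, Hagh (glyoxalase II) by 3.39, and the peroxidases Prdx2 and Gpx1 by 2.56 and 2.44. Prdx2 and Gpx1 were not called under quantile normalization (0.74 and 0.62) or hybridization control scaling (0.95 and 0.82). The list held 2 higher calls under quantile normalization, and 2 higher and 2 lower with hybridization control scaling. Of all probe sets, 7.31% and 1.23% were called higher under these 2 scalings. Bpgm (-1.46), which makes the bisphosphoglycerate that lowers oxygen affinity, Prdx2 (-1.62) and Hagh (-2.35) were called lower in REC against NX. Hagh kept that call with hybridization control scaling (-1.56), and Bpgm (-0.65) and Prdx2 (-0.82) did not.

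Genes that clear free haemoglobin and heme, such as haptoglobin and Hmox1, gave 0 calls of 6 in CH against NX (limma), and 0 passed at an unadjusted p under 0.05. With hybridization control scaling 3 were called lower, where the median of all probe sets was -0.71. Of 6 genes beside the alpha cluster, Snrnp25 alone was called (2.47, and 0.89 and not called with hybridization control scaling), while Nprl3, whose introns hold the alpha globin enhancers, changed by 0.57 (limma adjusted p = 0.128). Cygb, Ngb and Mb, globins of other tissues, gave 0 calls of 3 (limma), and 2 passed at an unadjusted p under 0.05. Their changes were 0.70, 0.00 and 0.97.

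**Figure D5:**
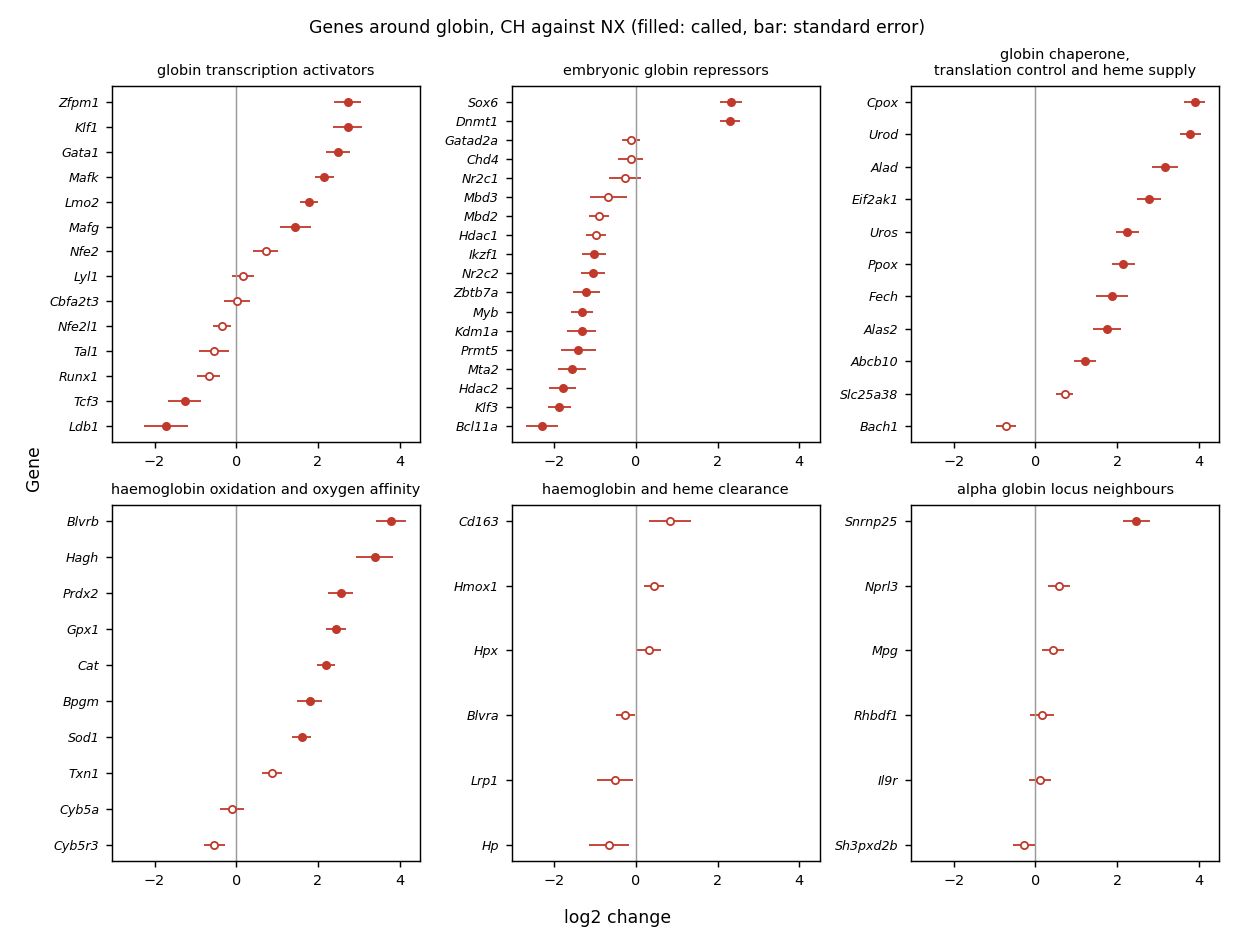
Change in log2(signal + 16) in CH against NX for the genes around globin, 1 point per gene with its standard error and filled where called. Heme supply and haemoglobin oxidation genes lie mostly to the right, and 10 of 18 embryonic globin repressors are filled points to the left.

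Markers of red cells had a higher median change than the globins, a difference that was not tested. Of 8 measured red cell membrane markers, such as Slc4a1 (band 3), all 8 were called higher in CH against NX. This held under the deposited scaling and under hybridization control scaling (medians 3.95 and 2.37), beside 8.04% and 1.23% of all probe sets. In REC against NX, beside 2.74% of all probe sets, 5 of the 8 markers were called lower. Their summed signal was 6647 to 9626 in NX, 49870 to 83549 in CH and 637.0 to 3075 in REC. Of 7 young reticulocyte markers, 5 were called higher in CH against NX and 3 lower in REC against NX. Epor (0.77) and Itga4 (-0.68) were not called in CH against NX. Under quantile normalization and under hybridization control scaling, 4 were called higher and 1 lower in CH against NX. With hybridization control scaling 1 was called lower in REC against NX. Neutrophil, platelet and hepatocyte markers gave 0 calls in CH against NX (limma) and 0 genes at an unadjusted p under 0.05, monocyte markers 1 lower of 5, and NK cell markers 3 lower and 1 higher of 5. With hybridization control scaling 6 of 8 neutrophil, 4 of 5 platelet, 4 of 5 monocyte and 0 of 4 hepatocyte markers were called lower. Their medians were -1.36, -1.49, -1.98 and -0.50, against -0.71 over all probe sets. Under quantile normalization 2 neutrophil and 2 platelet markers were called lower. The summed hepatocyte marker signal was 82.2 to 427.8 over the 12 arrays, and no marker was at 0 on any array.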

How the data were processed

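Globin RNA was read on 12 Affymetrix Mouse 430 2.0 arrays, 4 per group, from amplified whole blood RNA. The deposited values are linear signal intensities, 1 per probe set, that the authors scaled to an equal trimmed mean on every array. The study's methods name GC-RMA, a log2 scale, but the deposited intensities are not on it, and while the methods name the GeneChip Operating System for storing probe set intensities, they do not say that it made the deposited values. Scaling to a trimmed mean sets each array's average signal with the extremes left out, so values are relative to the other signals of that array. It does not make the bright end equal. The highest signal of an array was 22381 to 37235 in NX, 74356 to 111468 in CH and 13962 to 21148 in REC.

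Signals were tested as log2(signal + 16) with limma 3.58.1 in R 4.3.3, with 1 mean per group, 9 residual degrees of freedom and Benjamini-Hochberg adjustment over 45101 probe sets, after a check of the steps on simulated data. Calls needed an adjusted p below 0.05 and a 2-fold change. Single values per array were compared by exact two-sided permutation tests. Their precision is limited by the number of arrays. A figure legend of the study gives another number of mice per group than its methods, which give 4. Figures were drawn with matplotlib 3.10.9 in Python 3.11.15.

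Gene names came from GEO's platform annotation, and old symbols were updated by gene identifier. Named were all globin probe sets, up to 4 called genes per pathway list with the greatest absolute change in CH against NX, the genes behind counts of 5 or fewer, and the 5 genes most like each adult globin. A list gene was read by its probe set of highest mean log2 signal that names it alone. The members and lists were chosen with earlier results of these data known. Alternatives were a pseudocount of 1, quantile normalization, median centring, scaling on the hybridization controls, leaving out dim probe sets (a signal of at least 100 on at least 4 arrays was required), other variance priors, only the 8 arrays compared, no fold limit, probe sets naming 1 gene, a block for the replicate number, and each array left out in turn. Differences within an array were also taken with no pseudocount, an alternative chosen after seeing the data.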

Additional observations from a re-analysis of the deposited data

Results flagged for a closer look

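Dixon's criterion at 95% was applied to log2(signal + 16) in 45 groups of 4 mice (15 globin probe sets in 3 groups). The highest or lowest mouse stood apart from the others in 1, where chance alone would give about 1 in 20. On the linear signals, where the count can differ, no count was taken. It was Hba-x (1448716_at) in NX, in which mouse 4 read 12.22 and the next highest NX mouse 2.607. The signal is below the added 16, and the same mouse was not the highest NX mouse in the Hbb-bh1 probe sets.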

How the results depend on the processing

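With all 15 globin probe sets, 12, 1 and 13 were called in CH against NX, REC against NX and CH against REC. Scaling on the hybridization controls left 0, 0 and 1, with Hbb-b2 1427866_x_at just under 2-fold in REC against NX (-1.00, limma adjusted p = 0.0121). Quantile normalization gave 7 in CH against NX (6 of the 12, and Hbb-bh1 1437810_a_at). Leaving out each array in turn gave 11 to 13, 1 and 13. The lowest counts came without NX mouse 2 or 3 or CH mouse 2 or 4 (Hba-x lost), and the highest without NX mouse 1 or CH mouse 3 (Hbb-bh1 1437810_a_at gained). Hba-x in CH against NX was also lost with only the 8 arrays compared (adjusted p = 0.0583). The other settings kept each count within 1.5 times. The replicate numbers did not pair the mice (correlations of deviations from -0.203 to 0.436 in CH against NX), and the replicate block gave 12, 1 and 13 calls and beta minus alpha changes of 0.01, 0.00 and 0.00.

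Beta minus alpha in CH against NX, REC against NX and CH against REC ranged over -0.02 to 0.03, -0.02 to 0.04 and -0.04 to 0.03 without each array. Under quantile normalization the first and second were -0.01 and -0.02, and as means over all adult probe sets they were 0.50, -0.55 and 1.05. Hbb-y minus adult beta ranged over 0.38 to 0.81, 0.00 to 0.52 and 0.09 to 0.57 without each array, and was 2.61, -0.17 and 2.78 under quantile normalization.

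Changes of single probe sets that turned sign were these. With hybridization control scaling in CH against NX, Hba-a1 1453574_at was -0.07, the alpha probe set 1428361_x_at -0.01, Hbb-bh1 1437810_a_at -0.32 and 1437990_x_at -0.57. In REC against NX, Hba-a1 1453574_at was 0.29, Hba-a2 1427219_at 0.52, alpha 1417714_x_at 0.14, Hbb-b2 1427865_at 0.15, Hbb-bh1 1450736_a_at 0.36 and Hbb-y 1436823_x_at 0.01. In CH against REC, Hba-a1 1453574_at was -0.36, Hba-a2 1427219_at -0.18, Hbb-bh1 1437990_x_at -0.44 and 1450736_a_at -0.24. Under quantile normalization alpha 1428361_x_at (-0.16), Jund (-0.10) and Rps29 (-0.11) turned in CH against NX, and Hba-a1 1453574_at (0.14) and Hbb-bh1 1450736_a_at (0.06) in REC against NX, the last 2 also with median centring (0.13 and 0.03). Without each array, REC against NX ranged over -0.21 to 0.15 for Hba-a1 1453574_at, -1.00 to 0.01 for Hbb-bh1 1437990_x_at and -0.29 to 0.05 for 1450736_a_at, each highest without NX mouse 1. Hbb-bh1 1437990_x_at in CH against NX ranged over -0.10 (without NX mouse 3) to 0.91 (without NX mouse 1). The cause of these moves was not tested. Signals below about 16 on the deposited scale are set by the pseudocount.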
